A study of Mus musculus with 18 samples.

Results

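The 9 genes described here carry the MHC class II presentation pathway: the class II chains H2-Aa, H2-Ab1 and H2-Eb1, the peptide exchange genes H2-DMa, H2-DMb1 and H2-DMb2, the invariant chain gene Cd74, the transactivator gene Ciita and the protease gene Ctss. They were chosen by name among the 20615 genes of the count table, with earlier results of these data known. All 9 passed the filter on low counts that left 15789 genes for testing. The samples were bone marrow-derived macrophages (BMDMs) from C57BL/6 (B6) mice and from C57BL/6.NOD-Aec1Aec2 mice (SjSS), a Sjögren's syndrome model in which the NOD intervals Idd3 (Aec1) and Idd5 (Aec2) were bred onto the B6 background. BMDMs of both strains came from mice of 7 to 12 weeks and were differentiated for 7 days with M-CSF from L929 supernatant. Each strain had 3 control samples, 3 samples given 5 apoptotic cells (AC) per BMDM for 2 h and left for 3 h after washing, and 3 samples given 1 µM CpG for 6 h. ACs were thymocytes killed with dexamethasone. The labels and the study's methods differ on the time after washing, and the time given here is that of the labels. The study's cytokine experiments used thymocytes of the same strain as the BMDMs, which the sources used here do not state for these samples, and the controls received no cells.

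Class II molecules present peptides from endosomes to CD4+ T cells. An alpha and a beta chain pair around the invariant chain, which blocks the peptide groove until cathepsins, cathepsin S among them, cut it down to a short remnant called CLIP. H2-DM, a dimer of H2-DMa with a DM beta chain, then exchanges CLIP for peptide. CIITA, which does not itself bind DNA, acts on factors already sitting on the promoters of these genes, and in macrophages it is induced by interferon gamma. B6 mice make no I-E alpha chain, so that the H2-Eb1 product has no partner there.

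Depth ranged from 30688336 to 57139662 estimated counts per sample, with a median of 47912525. The TMM scaling factors, which correct for a few genes taking up much of a library, lay between 0.833 and 0.838 in the SjSS AC samples and between 0.942 and 1.134 in the other 15. Without this scaling, an alternative chosen after seeing the data, the median log2 fold change of all genes moved to -0.43 with AC in SjSS, -0.35 between the strains with AC and in the interaction of strain and AC, -0.22 with CpG in B6 and -0.14 with CpG in SjSS, and changes below are relative to the scaled totals. CPM values, which divide each count by the size of its library after TMM scaling, are listed in the order of replicates 1, 2 and 3, and differences are log2 fold changes ± SE from edgeR's quasi-likelihood test. A gene passed the test at an adjusted p under 0.05 and was called where its log2 fold change was also over 1.3 in size. The samples of a group came from separate mice, and whether a mouse gave cells to more than 1 treatment is not stated.

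In bulk RNA a smaller share of cells with class II transcripts and less transcript per cell cannot be told apart. Macrophage transcripts such as Lyz2, Csf1r and Adgre1 were abundant in all groups, and the 9 macrophage markers summed to between 15590 and 23880 CPM per sample. For other cells that bear class II, the B cell markers other than Cd79b did not exceed 1.47 CPM in any sample, and the dendritic cell markers other than Itgax and Clec10a did not exceed 2.67 CPM. Of 13 thymocyte and T cell markers, the 12 other than Cd4 stayed at or under 0.757 CPM.

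The class II chains and the invariant chain fell in B6 BMDMs after ACs and rose in SjSS BMDMs, where on unscaled library totals all 4 kept the direction and H2-Ab1 alone passed. H2-Aa, which encodes the alpha chain of I-A, was at 6.66, 11.4 and 10.8 CPM in the B6 controls and at 2.22, 4.16 and 3.68 CPM in the B6 AC samples. It was at 15.7, 18.9 and 11.4 CPM in the SjSS controls and at 25.9, 32.7 and 23.8 CPM in the SjSS AC samples. All AC samples of B6 were thus under all B6 controls, while all AC samples of SjSS were over all SjSS controls. H2-Aa fell by 1.52 ± 0.26 (log2) in B6, or 2.87-fold (edgeR adjusted p = 0.000129), and rose by 0.85 ± 0.23 in SjSS, or 1.80-fold (edgeR adjusted p = 0.00394).

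H2-Ab1, the gene of the I-A beta chain, moved less in B6 than its partner. Its levels were 9.48, 11.4 and 12.5 CPM in the B6 controls against 5.32, 8.08 and 5.70 CPM with ACs. In SjSS they were 14.0, 18.3 and 13.2 CPM against 25.3, 34.0 and 27.1 CPM. Again no AC sample lay among the controls of its strain. The fall in B6 was of 1.74-fold, a log2 fold change of -0.80 ± 0.17 (edgeR adjusted p = 0.00114), and the rise in SjSS was of 1.91-fold, or 0.94 ± 0.16 (edgeR adjusted p = 6.70e-05).

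H2-Eb1 had the largest fall of the chains in B6 on the log2 scale. The B6 controls were at 5.89, 9.01 and 8.93 CPM and the B6 AC samples at 1.45, 3.58 and 2.38 CPM. The SjSS controls were at 11.6, 14.3 and 9.497 CPM and the SjSS AC samples at 21.0, 25.6 and 18.3 CPM. The groups did not overlap within either strain. The log2 fold change was -1.67 ± 0.28 in B6, 3.19-fold lower (edgeR adjusted p = 9.68e-05), and 0.88 ± 0.25 in SjSS, 1.84-fold higher (edgeR adjusted p = 0.00460).

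Cd74, whose product is the invariant chain, was the most abundant of these 4 genes. It was at 33.3, 40.0 and 43.0 CPM in B6 controls and at 9.21, 17.2 and 14.97 CPM in B6 AC samples. SjSS controls had 49.8, 60.9 and 44.1 CPM and SjSS AC samples 82.5, 93.8 and 77.9 CPM. The highest B6 AC sample was thus well under the lowest B6 control. Cd74 fell by 1.49 ± 0.17 (log2) in B6, or 2.81-fold (edgeR adjusted p = 1.04e-06), and rose by 0.72 ± 0.16, or 1.65-fold, in SjSS (edgeR adjusted p = 0.000662).

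**Figure D1:**
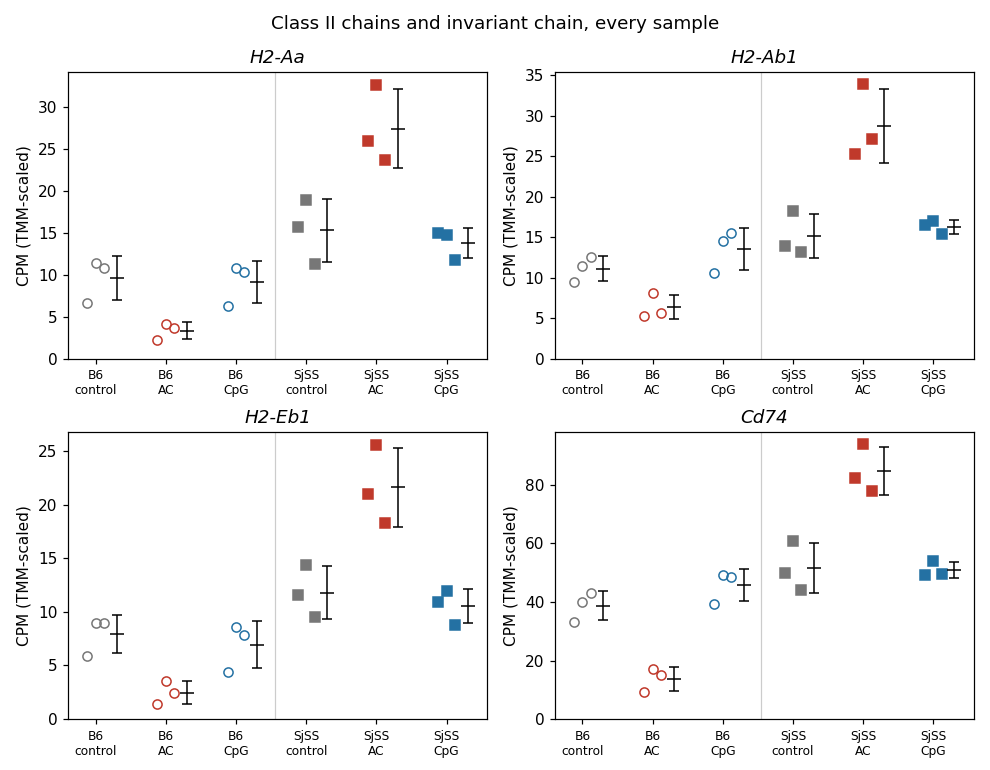
CPM of H2-Aa, H2-Ab1, H2-Eb1 and Cd74 in each sample (points, open circles for B6 and filled squares for SjSS), with the group mean and SD beside them (n = 3). The B6 AC samples are the lowest group in each panel and the SjSS AC samples the highest, with Cd74 between 9.21 and 17.2 CPM in the former and between 77.9 and 93.8 CPM in the latter.

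Deposited coordinates (mm10) place the 3 chains close together on chromosome 17, H2-Ab1 at 34263209 to 34269419, H2-Aa at 34282744 to 34287828 on the reverse strand and H2-Eb1 at 34305877 to 34316200. The DM genes lie on the same chromosome from 34135182, the start of H2-DMa, to 34160231, the end of H2-DMb1. Ctss is on chromosome 3, which also carries Idd3, and the limits of the SjSS intervals are not given in the sources used here.

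RefSeq's promoter table (GRCm38.p6), which gives 250 bases before and 50 after a gene's start, held 6 of the 9 genes. Class II promoters share an X box, bound by RFX, and a Y box, an inverted CCAAT sequence bound by NF-Y. The motif TGATTGG, the core of the Y box, was present in 4 of the 6 genes, and the stretches that carry it are printed because these genes split into different patterns below. Capitals mark TGATTGG and, in H2-Eb1, AACNGATG, a part of the X box.
H2-Aa: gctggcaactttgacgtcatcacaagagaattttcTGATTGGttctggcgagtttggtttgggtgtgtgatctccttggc
H2-Eb1: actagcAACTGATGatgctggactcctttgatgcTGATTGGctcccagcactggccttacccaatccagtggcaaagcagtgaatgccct
H2-DMb1: tgctaggctgattcactcagTGATTGGtct
H2-DMb2: tgctaggctaagtcacttagTGATTGGact

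The stretches are chr17:34287829-34287908 on the reverse strand for H2-Aa, and on the forward strand chr17:34305772-34305861 for H2-Eb1, chr17:34153108-34153137 for H2-DMb1 and chr17:34145137-34145166 for H2-DMb2. TGATTGG began, counted from the start in the promoter table, 50 bases before it in H2-Aa, 61 in H2-Eb1, 63 in H2-DMb1 and 92 in H2-DMb2. For the DM beta genes that start lies downstream of the start in the deposited table, so that by the deposited coordinates both stretches are inside the genes. Searched on both strands, TGATTGG was found in 7.82% of the 32851 promoters in the table and AACNGATG in 2.32%. Both motifs on 1 strand, as in H2-Eb1, H2-DMb1 and H2-DMb2, were found in 0.0761%. The 2 motifs do not overlap in these genes. These are matches of letters, and no binding was measured.

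Ciita, the transactivator of the pathway, was scarce. The B6 controls had 17, 21 and 27 counts and the B6 AC samples 11, 24 and 19, which is 0.272, 0.438 and 0.479 CPM against 0.218, 0.454 and 0.423 CPM. The SjSS controls had 17, 17 and 24 counts, or 0.313, 0.503 and 0.435 CPM, and the SjSS AC samples 53, 97 and 65, or 1.37, 2.04 and 1.46 CPM. The B6 samples overlapped, whereas the lowest SjSS AC sample was over the highest SjSS control. Ciita rose 3.93-fold with ACs in SjSS, a log2 fold change of 1.98 ± 0.40 (edgeR adjusted p = 0.000305). Its log2 fold change in B6 was -0.11 ± 0.43 (edgeR adjusted p = 0.870), so that the fall of the chains in B6 was not accompanied by a detectable change of Ciita at these counts. The gene overlaps Dexi on the other strand, and whether the counting used strand is not stated. Dexi itself had means of 6.62 CPM in SjSS controls and 6.16 CPM in SjSS AC samples (log2 fold change -0.11 ± 0.13, edgeR adjusted p = 0.490).

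Ctss, encoding cathepsin S, was by far the most abundant member. With ACs its levels were 1498, 1708 and 1826 CPM in B6, against 1390, 1567 and 1582 CPM in the controls, and these samples overlapped. In SjSS they were 2053, 2068 and 1986 CPM against 1732, 1626 and 1584 CPM, with no overlap. Ctss rose by 0.31 ± 0.08 (log2) in SjSS (edgeR adjusted p = 0.00196), a direction that turned to -0.11 ± 0.07 (edgeR adjusted p = 0.189) on unscaled library totals, and its log2 fold change in B6 was 0.15 ± 0.08 (edgeR adjusted p = 0.136). The pseudogene Hmgb1-ps5 overlaps it on the same strand, and 15 of its 18 deposited values were not whole, so that some of its reads were divided by the authors' estimate.

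**Figure D2:**
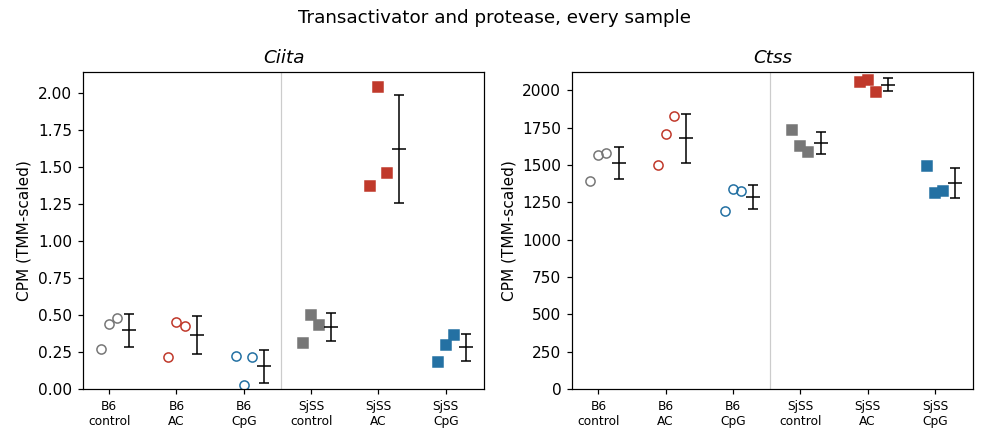
CPM of Ciita (left) and Ctss (right) in each sample, open circles for B6 and filled squares for SjSS, with the group mean and SD (n = 3). Ciita lies between 1.37 and 2.04 CPM in the SjSS AC samples and at or under 0.503 CPM in all others.

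The DM genes followed the chains downward in B6 but did not follow them upward in SjSS. H2-DMa was at 27.6, 24.96 and 26.4 CPM in B6 controls and at 14.8, 15.7 and 12.7 CPM after ACs. In SjSS it was at 24.9, 26.9 and 28.5 CPM and then at 23.0, 24.2 and 24.0 CPM. It fell by 0.87 ± 0.08 (log2) in B6 (1.83-fold, edgeR adjusted p = 4.30e-08), and its log2 fold change in SjSS was -0.17 ± 0.08 (edgeR adjusted p = 0.0607), although there too each AC sample was under each control.

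H2-DMb1 and H2-DMb2 are paralogs that encode DM beta chains, and no deposited value of either was whole in the 18 samples, so that reads were divided between them by the authors' estimate and their split is uncertain. H2-DMb1 went from 39.0, 38.1 and 38.9 CPM to 30.9, 28.7 and 29.7 CPM in B6, and from 36.7, 35.6 and 37.3 CPM to 33.9, 37.6 and 33.1 CPM in SjSS. H2-DMb2 was scarcer, at 2.32, 2.46 and 2.45 CPM and then 1.19, 1.53 and 1.00 CPM in B6, and at 2.01, 1.72 and 2.28 CPM and then 1.16, 1.24 and 0.920 CPM in SjSS. With ACs, H2-DMb1 fell by 0.38 ± 0.07 (log2) in B6 (edgeR adjusted p = 0.000214) and had a log2 fold change of -0.07 ± 0.07 in SjSS (edgeR adjusted p = 0.430), whereas H2-DMb2 fell in both strains, by 0.95 ± 0.23 (edgeR adjusted p = 0.00330) and 0.86 ± 0.24 (edgeR adjusted p = 0.00518). H2-DMb2 was the only member that fell with ACs in SjSS, although H2-DMa and H2-DMb1 also passed as lower on unscaled library totals.

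**Figure D3:**
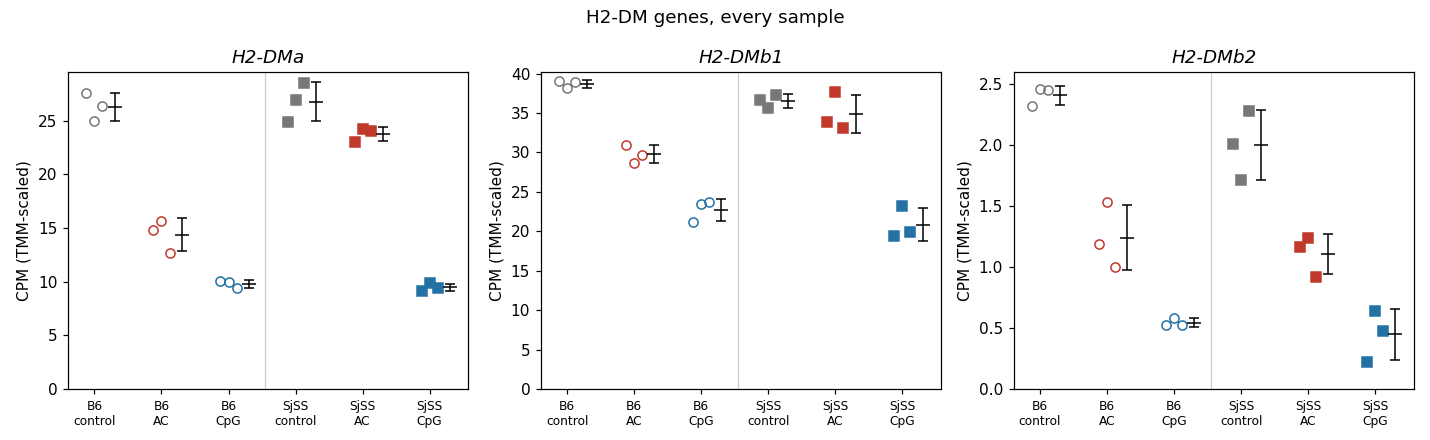
CPM of H2-DMa, H2-DMb1 and H2-DMb2 in each sample, open circles for B6 and filled squares for SjSS, with the group mean and SD (n = 3). The CpG samples are the lowest group of each strain in each panel, and H2-DMa in the SjSS AC samples lies between 23.0 and 24.2 CPM against 12.7 to 15.7 CPM in the B6 AC samples.

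Counted over the pathway, 7 of the 9 members fell with ACs in B6, where 18.3% of all tested genes did, and 3 of them (H2-Aa, H2-Eb1 and Cd74) were called, against 2.04% of genes. Without B6 AC replicate 1, the lowest sample for these 3, the log2 fold changes of H2-Aa and Cd74 were -1.29 and -1.27, past the test but within the fold threshold, and 1 call was left. In SjSS 6 members rose (28.6% of genes did) and 1 fell (29.4%), and Ciita alone was called higher (7.09%). On unscaled library totals the 7 falls in B6 passed again, while in SjSS H2-Ab1 (0.52 ± 0.16) and Ciita (1.56 ± 0.40) still rose and H2-DMa, H2-DMb1 and H2-DMb2 fell. H2-Aa (0.44 ± 0.23), H2-Eb1 (0.47 ± 0.24) and Cd74 (0.31 ± 0.15) then kept their direction in SjSS but did not pass (edgeR adjusted p = 0.0944, 0.0936 and 0.0843). The median log2 fold change of the 9 members was -0.87 in B6 and 0.72 in SjSS, beside medians over all tested genes of 0.0015 and -0.017. The comparisons share the control samples of their strain with those of CpG.

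The strains' responses to ACs were compared directly by the interaction of strain and AC. The response of 7 members was higher in SjSS, all but H2-DMb2 and Ctss (19.6% of tested genes), and 5 of them were called (4.76%). On unscaled library totals 6 were higher, without H2-DMb1. The difference between the responses, SjSS minus B6 on the log2 scale, was 2.37 ± 0.35 for H2-Aa, 1.74 ± 0.24 for H2-Ab1, 2.56 ± 0.37 for H2-Eb1, 2.21 ± 0.23 for Cd74 and 2.09 ± 0.59 for Ciita. The edgeR adjusted p lay between 3.95e-07 for Cd74 and 0.00857 for Ciita. For the DM genes it was 0.70 ± 0.11 for H2-DMa (edgeR adjusted p = 4.03e-05), 0.31 ± 0.10 for H2-DMb1 (edgeR adjusted p = 0.0163) and 0.09 ± 0.34 for H2-DMb2 (edgeR adjusted p = 0.868). The chains and Cd74 moved in opposite directions in the strains, while H2-DMa fell in B6 and did not pass the test in SjSS. The same 5 members were called on unscaled library totals, with differences from 1.40 ± 0.24 for H2-Ab1 to 2.22 ± 0.37 for H2-Eb1, whereas H2-DMb1 was then at -0.03 ± 0.10 (edgeR adjusted p = 0.830).

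After ACs, 8 of the 9 members were higher in SjSS than in B6 (24.0% of tested genes), all but H2-DMb2, and 5 were called (6.24%). H2-Aa was 8.19-fold and H2-Eb1 8.72-fold higher (log2 3.03 ± 0.26 and 3.12 ± 0.28, edgeR adjusted p = 1.43e-08 and 2.46e-08). Cd74 was 6.14-fold, H2-Ab1 4.51-fold and Ciita 4.43-fold higher. H2-DMa was 1.65-fold higher (edgeR adjusted p = 2.66e-07), H2-DMb1 1.17-fold and Ctss 1.21-fold, of which the last 2 turned to log2 fold changes of -0.07 ± 0.07 and -0.02 ± 0.07 on unscaled totals.

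Without treatment, 0 of the 9 members passed edgeR's test between the strains, where 19.6% of tested genes did. At an unadjusted p under 0.05 there were 4 (32.4% of tested genes), H2-Aa, H2-Ab1, H2-Eb1 and Cd74. Each was higher in SjSS by a log2 fold change of 0.41 to 0.66. H2-Ab1, H2-Eb1 and Cd74 did not overlap between the strains. Nor did Ctss, higher in SjSS, or H2-DMb1 and H2-DMb2, lower in SjSS (edgeR adjusted p = 0.280, 0.431 and 0.470). The share of all genes without overlap was not counted, so that no strain difference is read from the lack of overlap. For the 4 genes H2-Aa, H2-Ab1, H2-Eb1 and Cd74 the edgeR adjusted p lay between 0.0562 and 0.124. By DESeq2, 2 members passed, H2-Ab1 and Cd74. With the replicate number as a block across all groups, these 4 passed as higher in SjSS (edgeR adjusted p = 0.0194, 0.0201, 0.0415 and 0.0262). On unscaled library totals 2 passed edgeR's test, H2-Aa (0.71 ± 0.23, edgeR adjusted p = 0.0403) and Cd74 (0.45 ± 0.16, edgeR adjusted p = 0.0490). Ciita had nearly the same level in both strains (log2 fold change 0.06 ± 0.43), as did H2-DMa (0.02 ± 0.07).

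CpG, an oligonucleotide that activates the endosomal receptor TLR9, lowered the DM genes in both strains and left the chains within the spread of the samples. H2-DMa was at 10.02, 10.01 and 9.39 CPM in the B6 CpG samples and at 9.17, 9.83 and 9.38 CPM in SjSS, far under the controls given above. H2-DMb1 was at 21.1, 23.5 and 23.7 CPM in B6 and at 19.4, 23.2 and 19.9 CPM in SjSS. H2-DMb2 was at 0.524, 0.586 and 0.521 CPM and at 0.225, 0.642 and 0.479 CPM. No CpG sample overlapped a control of its strain for any DM gene.

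The log2 fold changes with CpG were -1.42 ± 0.08 in B6 and -1.50 ± 0.08 in SjSS for H2-DMa (edgeR adjusted p = 1.24e-11 in B6), -0.77 ± 0.07 and -0.81 ± 0.07 for H2-DMb1, and -2.15 ± 0.26 and -2.17 ± 0.27 for H2-DMb2. The share of H2-DMb2 in the summed counts of the DM beta genes was 5.87% ± 0.23 (SD, n = 3) in B6 controls and 2.34% ± 0.16 with CpG, and 5.19% ± 0.59 and 2.06% ± 0.81 in SjSS, within the limits of the authors' division of reads.

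The chains stayed near their controls. H2-Aa was at 6.25, 10.9 and 10.3 CPM in B6 and at 15.04, 14.7 and 11.8 CPM in SjSS. H2-Eb1 was at 4.41, 8.55 and 7.80 CPM and at 10.9, 11.9 and 8.79 CPM. These values overlapped the controls of either strain, as did those of H2-Ab1 (10.6 to 15.5 CPM in B6, 15.3 to 17.0 CPM in SjSS) and Cd74 (39.3 to 49.4 CPM and 49.2 to 54.2 CPM). Their log2 fold changes lay between -0.20 and 0.28, and their edgeR adjusted p values were over 0.05. With the replicate number as a block within strain, H2-Ab1 and Cd74 passed as higher with CpG in B6, at log2 fold changes of 0.27 and 0.24 (edgeR adjusted p = 0.0338 and 0.0273).

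Ctss fell slightly with CpG in both strains. Its levels were 1192, 1338 and 1323 CPM in B6 and 1495, 1315 and 1326 CPM in SjSS, under each control of the strain, and its log2 fold changes were -0.24 ± 0.08 (edgeR adjusted p = 0.0119) and -0.26 ± 0.08 (edgeR adjusted p = 0.00766). Ciita had 11, 1 and 10 counts in the B6 CpG samples and 8, 12 and 16 in SjSS. It fell by 1.27 ± 0.48 (log2) in B6 (edgeR adjusted p = 0.0304), and its log2 fold change in SjSS was -0.55 ± 0.45 (edgeR adjusted p = 0.327). Without any 1 of B6 control replicate 1, B6 CpG replicate 1 or B6 CpG replicate 3, the fall in B6 was over the fold threshold, at -1.49, -1.59 and -1.53.

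In all, 5 members fell with CpG in B6 (29.8% of tested genes), of which H2-DMa and H2-DMb2 were called (6.88%). In SjSS 4 fell (26.4%), and the same 2 were called (4.45%). Between the strains with CpG, 0 of the 9 members passed edgeR's test (19.7% of tested genes) and 0 passed DESeq2's. H2-Aa and H2-Eb1 were at an unadjusted p under 0.05 (32.1% of tested genes). On unscaled library totals H2-Aa passed as higher in SjSS (0.70 ± 0.24, edgeR adjusted p = 0.0414). With the replicate block across all groups, H2-Aa and H2-Eb1 passed as higher in SjSS (edgeR adjusted p = 0.0320 and 0.0296). In the interaction of strain and CpG 0 passed edgeR's test (5.85% of tested genes), with 0 at an unadjusted p under 0.05 (20.1%). By DESeq2, which gave no adjusted p for Ciita, 0 passed.

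**Figure D4:**
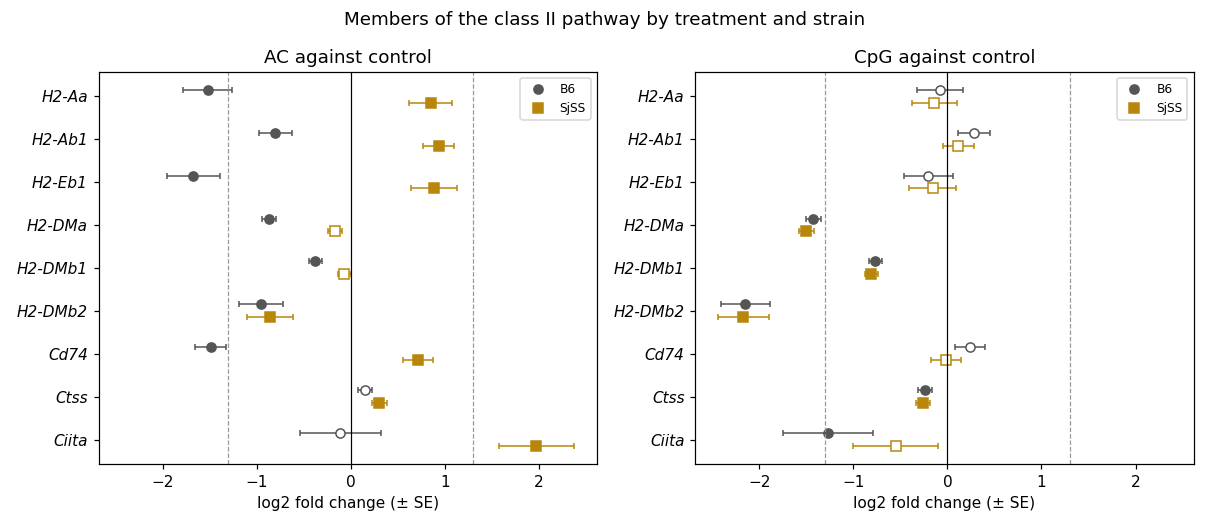
Log2 fold changes ± SE of the 9 members with AC (left) and CpG (right) against control, circles for B6 and squares for SjSS. Filled symbols passed the test (adjusted p under 0.05) and dashed lines mark the fold threshold of 1.3; with AC the chains and Cd74 lie on opposite sides of 0 in the strains, from -1.67 for H2-Eb1 in B6 to 0.94 for H2-Ab1 in SjSS, and with CpG the strains lie close together.

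H2-DMa and H2-Aa thus made different responses to the 2 treatments. The ratio of H2-DMa to H2-Aa CPM was 4.14, 2.18 and 2.43 in B6 controls, 6.67, 3.76 and 3.44 with ACs and 1.60, 0.919 and 0.908 with CpG. In SjSS it was 1.58, 1.43 and 2.51 in controls, 0.888, 0.741 and 1.01 with ACs and 0.610, 0.668 and 0.795 with CpG. Replicate 1 had the highest ratio in each B6 group, and it also had the lowest H2-Aa in each. The ratio of Cd74 to H2-Aa changed little by comparison, with group means from 3.11 in SjSS AC samples to 5.18 in B6 CpG samples.

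**Figure D5:**
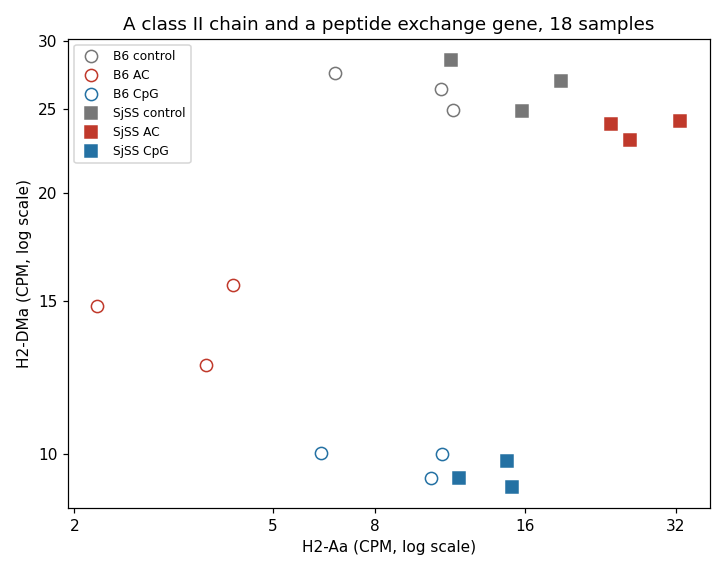
H2-DMa against H2-Aa, both in CPM on log axes, 1 point per sample (18 samples, open circles for B6, filled squares for SjSS). The CpG samples lie at the bottom, at 9.17 to 10.02 CPM of H2-DMa, the B6 AC samples at the left, at 2.22 to 4.16 CPM of H2-Aa, and the SjSS AC samples at the right, at 23.8 to 32.7 CPM.

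Across the 18 samples, which share groups and libraries, the log2 CPM of H2-Aa followed those of H2-Eb1 (Pearson r = 0.994), Cd74 (r = 0.967) and H2-Ab1 (r = 0.966). After the group means were taken out, the values were 0.959, 0.900 and 0.857. H2-DMa followed H2-DMb1 (r = 0.958) and H2-DMb2 (r = 0.883) but not H2-Aa (r = 0.300). Unlike for the chains, these values dropped after the group means were taken out, to 0.142, 0.457 and -0.295. With Ciita, H2-Aa had an r of 0.489, or 0.103 after the group means were taken out. Among the genes outside the pathway, those most like the mean of the 3 chains and Cd74 were Arhgap17 (r = 0.923), Dennd5a (0.917), Col18a1 (0.913), Stat5b (0.912) and Tm4sf5 (0.910). Those most like Ciita were Rpl17 (0.911), Csf1 (0.902) and Aldh1a2 (0.899).

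Levels of different genes can be compared only per length. Per kilobase of exon, Ctss led in all groups, at 1114 CPM ± 78.7 (SD, n = 3) in B6 controls, and Ciita was last at 0.0416 CPM ± 0.0115. Between them in B6 controls came Cd74 at 23.1 ± 2.95 and H2-DMb1 at 23.0 ± 0.29, which did not differ beyond their spread. They were followed by H2-DMa at 7.63 ± 0.38, by H2-Ab1 at 4.34 ± 0.60 and H2-Eb1 at 4.09 ± 0.91, which did not differ either, by H2-Aa at 2.54 ± 0.69 and by H2-DMb2 at 1.38 ± 0.04. In SjSS AC samples Cd74 stood apart at 50.5 CPM per kilobase ± 4.90, H2-DMb1 was at 20.7 ± 1.43, and H2-Ab1 (11.2 ± 1.78) and H2-Eb1 (11.1 ± 1.88) were not distinguishable. H2-Aa at 7.23 ± 1.23 and H2-DMa at 6.89 ± 0.18 were again within their spread.

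Other genes of the pathway were grouped in 5 lists. Of the other class II genes, the H2-O chains that restrain H2-DM were tested, and H2-Eb2, with 0 counts in the B6 controls and at most 13 in any group, was not. H2-Oa rose with ACs in SjSS (log2 fold change 1.03 ± 0.41, edgeR adjusted p = 0.0372), from a mean of 0.443 to 0.937 CPM, and was higher in SjSS than in B6 with ACs (1.46 ± 0.42, edgeR adjusted p = 0.00761). H2-Ob did not pass in either strain with ACs.

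The factors that sit on class II promoters went both ways. Of 8 (Rfx5, Rfxap, Rfxank, Nfya, Nfyb, Nfyc, Creb1 and Atf1), 2 rose with ACs in B6 and 0 fell, and 4 rose and 2 fell in SjSS, with 0 called in either by edgeR (20.0% of tested genes rose in B6, 28.6% rose and 29.4% fell in SjSS). Their median log2 fold changes were 0.12 and 0.17. Rfx5, the large subunit of RFX, rose by 1.06 ± 0.09 with ACs in SjSS, from a mean of 15.7 to 32.8 CPM (edgeR adjusted p = 5.23e-09), and its interaction was 0.88 ± 0.13 (edgeR adjusted p = 1.95e-05). Rfxap, of the same complex, fell by 0.72 ± 0.08 in SjSS. The interaction with AC passed for 1 of the 8 upward (19.6% of tested genes) and 3 downward (18.3%).

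Among interferon gamma signalling genes and the factors that act on Ciita, several rose with ACs far more in SjSS than in B6. Of 12 genes, 5 rose and 6 fell with ACs in B6 (20.0% and 18.3% of tested genes). In SjSS 7 rose and 2 fell (28.6% and 29.4%). The medians were -0.12 in B6 and 0.54 in SjSS. The interaction with AC passed for 8, all higher in SjSS (19.6% of tested genes). Irf1, a factor for the interferon gamma promoter of Ciita, had means of 73.0 CPM in B6 controls, 127.9 with ACs, 78.8 in SjSS controls and 1370 with ACs, and an interaction of 3.31 ± 0.14 (log2, edgeR adjusted p = 8.25e-12). Socs1, an inhibitor of that signalling, went from 3.10 to 12.0 CPM and from 2.02 to 313.3 CPM. The interactions of Jak2 (1.67 ± 0.13) and Irf2 (1.39 ± 0.09) were also called.

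With CpG, 8 of the 12 rose and 3 fell in B6 (28.1% and 29.8% of tested genes), and 6 rose and 3 fell in SjSS (27.8% and 26.4%). Socs1 rose by 2.72 ± 0.16 (log2) in B6 and 2.27 ± 0.19 in SjSS. Prdm1, which encodes the Ciita repressor Blimp-1, rose by 1.37 ± 0.06 in B6, from a mean of 27.9 to 72.1 CPM (edgeR adjusted p = 1.67e-13), and by 0.40 ± 0.05 in SjSS, from 44.6 to 59.0 CPM (edgeR adjusted p = 3.77e-06), and its interaction with CpG was -0.96 ± 0.08 (edgeR adjusted p = 1.12e-06). Some of the members, Ciita, H2-Aa, H2-Ab1, H2-Eb1 and Cd74, are in an interferon gamma list that the study drew from these samples, and their direction there is not independent evidence.

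Of 11 genes of endosomal proteolysis, 4 rose and 1 fell with ACs in B6 (20.0% and 18.3% of tested genes), and 6 rose and 0 fell in SjSS (28.6% and 29.4%). With CpG, 3 rose and 7 fell in each strain (28.1% and 29.8% of tested genes in B6, 27.8% and 26.4% in SjSS). The medians were -0.38 in B6 and -0.36 in SjSS, beside -0.041 and -0.014 over all tested genes. Ctsc, encoding cathepsin C, was the only one called, at 445.9 CPM in SjSS controls and 1266 CPM with ACs (log2 fold change 1.51 ± 0.08, edgeR adjusted p = 4.75e-12), and in the interaction with AC (1.43 ± 0.11).

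The list of class II turnover and costimulation had a median log2 fold change of 1.91 with ACs in SjSS. Of its 6 genes, 4 rose there (28.6% of tested genes did) and all 4 were called higher (7.09%). They were Cd40, Cd83 and Cd86, of costimulation and antigen presenting cell maturation, and March1, whose product ubiquitinates class II and lowers it at the surface. March1 had means of 96.8 CPM in B6 controls, 115.1 with ACs and 330.9 with CpG, and of 98.7, 351.4 and 233.6 CPM in SjSS. Cd40 rose by 6.03 ± 0.15 (log2) with ACs in SjSS and by 1.62 ± 0.14 in B6, and with CpG by 3.12 ± 0.14 and 3.45 ± 0.14. Cd83 and Cd86 rose with ACs in SjSS, by 2.05 ± 0.19 and 2.00 ± 0.17, and fell with CpG, by 1.68 ± 0.19 and 1.45 ± 0.17 in B6 and by 0.68 ± 0.19 and 0.67 ± 0.17 in SjSS. The interaction with AC was called higher for all 4 (4.76% of tested genes), from 1.58 ± 0.13 for March1 to 4.41 ± 0.20 for Cd40.

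Markers of other cells moved with the class II chains in part. The 8 dendritic cell markers in the table summed to between 28.5 and 39.1 CPM in the B6 controls, 13.2 and 13.6 CPM in the B6 AC samples, 30.8 and 36.0 CPM in the SjSS controls and 34.6 and 37.3 CPM in the SjSS AC samples. Most of this was Itgax, which encodes CD11c and is also made by macrophages, at a mean of 24.3 CPM ± 5.51 (SD, n = 3) in B6 controls and 7.51 CPM ± 0.77 with ACs. Itgax fell by 1.69 ± 0.14 (log2) with ACs in B6 (edgeR adjusted p = 1.61e-08) and had a log2 fold change of -0.06 ± 0.13 in SjSS. Clec10a moved as the chains did, falling with ACs in B6 from a mean of 7.71 to 4.45 CPM (-0.79 ± 0.16, edgeR adjusted p = 0.000563). In SjSS it rose from 5.58 to 7.31 CPM (0.39 ± 0.16, edgeR adjusted p = 0.0423), and its interaction was 1.18 ± 0.22 (edgeR adjusted p = 0.000374). Flt3 and Zbtb46, defining markers of dendritic cells, were at or under means of 0.091 and 0.654 CPM in each group. Of the 7 tested dendritic cell markers, 1 rose and 3 fell with ACs in B6 (20.0% and 18.3% of tested genes). In SjSS 2 rose and 1 fell (28.6% and 29.4%). With ACs 5 of the 7 were higher in SjSS than in B6 and 0 lower (24.0% and 25.5% of tested genes, median log2 fold change 1.76). In the interaction with AC 3 were higher and 0 lower (19.6% and 18.3%, median 1.41). Xcr1 rose from a mean of 0.279 to 2.13 CPM with ACs in SjSS and from 0.148 to 0.426 CPM in B6, with an interaction of 1.41 ± 0.50 (log2, edgeR adjusted p = 0.0342). Ccr7, at means of 0.533 CPM and under, was higher in SjSS than in B6 with ACs by 3.34 ± 1.01 (log2, edgeR adjusted p = 0.00994). It had 3 counts in the B6 AC samples together, and its log2 fold change with ACs in SjSS was -0.53 ± 0.67 (edgeR adjusted p = 0.528). Its interaction did not pass (2.57 ± 1.25, edgeR adjusted p = 0.117). Clec9a fell with ACs in SjSS (-1.04 ± 0.41, edgeR adjusted p = 0.0359) and was at -1.01 ± 0.40 in B6 (edgeR adjusted p = 0.0536).

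Markers of the ACs themselves stayed low, with summed thymocyte and T cell markers between 4.75 and 5.59 CPM in the B6 AC samples and between 13.8 and 18.4 CPM in the SjSS AC samples, against 8.12 to 10.02 CPM and 10.2 to 11.8 CPM in the controls. Cd4, which macrophages can also express, made up most of it, so that the sum says little on the other 12 markers. It fell with ACs in B6, from a mean of 8.60 to 3.57 CPM (-1.27 ± 0.14, edgeR adjusted p = 7.41e-07). In SjSS it rose from 10.3 to 14.0 CPM (0.44 ± 0.13, edgeR adjusted p = 0.00662). The interaction of Cd4 was called (1.71 ± 0.19, edgeR adjusted p = 8.88e-07), with directions as in the class II chains. Rag1 was at 0.163 CPM in the B6 AC samples and 0.0231 CPM in the SjSS AC samples, and at 0 counts in the controls of both strains. Of the 3 tested markers of this list, Cd4 and Lck were higher in SjSS than in B6 with ACs (24.0% of tested genes). They were so 3.91-fold and 2.46-fold (edgeR adjusted p = 8.47e-10 and 0.0191). Lck rose from a mean of 0.155 to 0.651 CPM with ACs in SjSS. Tcf7, the remaining tested marker, rose with ACs in B6 (log2 fold change 1.35 ± 0.50, edgeR adjusted p = 0.0395) and did not pass in SjSS (1.18 ± 0.53, edgeR adjusted p = 0.0660). Among the untested markers, Dntt, Themis and Cd8a had 18, 10 and 26 counts in the B6 AC samples together and 1, 0 and 10 in the SjSS AC samples. Cd3g (8 and 14) and Trac (4 and 7) went the other way. In the B6 controls Dntt, Themis and Cd8a had 0, 1 and 1 counts, while Cd3e had 9 there and 6 with ACs. The B cell markers, led by Cd79b, summed to between 12.6 and 13.6 CPM in B6 AC samples and between 14.2 and 14.98 CPM in SjSS AC samples, under their controls (16.6 to 18.9 CPM and 20.7 to 27.8 CPM). The thymic epithelial markers summed to at most 6.67 CPM in any sample. The part of these cells in the class II values was not tested.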

How the data were processed

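RNA-seq of 18 BMDM samples was analysed, 3 in each of 6 groups set by strain and treatment. The authors used STAR for alignment to mm10 and the Partek E/M tool for quantification, and deposited 1 table of unnormalized estimated counts per gene (41.1% of values not whole). Counts were rounded to whole numbers. Of 23 gene names turned into dates, 22 were resolved by position. R 4.3.3, edgeR 4.0.16, limma 3.58.1, DESeq2 1.42.0, matplotlib 3.10.9, numpy 2.4.6, pandas 2.3.3 and Python 3.11.15 were used. Genes were kept by filterByExpr (15789), libraries were scaled by TMM, and 1 quasi-likelihood model with a mean per group was fitted to all samples. Benjamini-Hochberg adjustment ran over all tested genes in each of 9 comparisons. Calls needed a log2 fold change beyond 1.3 in either direction besides an adjusted p under 0.05. The SE was the log2 fold change divided by the square root of F. The fit was tested on simulated data. The members and the gene lists were chosen with earlier results of these data known. All members were named. Genes of the 5 pathway lists were named with values where called in a treatment comparison or an interaction, at most 6 per list, or where their counts were under the filter, and H2-Oa, Rfx5, Rfxap, Dexi and the named cell type markers were added after their values were seen. Likeness was Pearson's r of log2 CPM. Kilobases are those of all annotated exons of a gene together. H2-Ea and H2-Ea-ps were not in the count table under these names, so that they could not be analysed here. A gene of the pathway lists that met the rule is not reported here. Same-numbered samples deviated together for B6 control with B6 CpG (correlations 0.137 to 0.264). Over the groups of both strains, 32 of 36 comparisons of a sample with another group were highest for its own number. This pairing is from the data and not the design, and the main fit had no replicate block. Replicates of a group differed by more than counting error. Alternatives were DESeq2, other or no scaling, filters and fold thresholds, fits to the compared groups alone, replicate blocks and leaving out each of the 18 samples.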

Additional observations from a re-analysis of the deposited data

Results flagged for a closer look

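The response to ACs differed between the strains, by the test of the interaction, for 5 members past the fold threshold. The differences in log2 fold change, SjSS minus B6, were 2.37 for H2-Aa, 1.74 for H2-Ab1, 2.56 for H2-Eb1, 2.21 for Cd74 and 2.09 for Ciita, with 3 samples per group. For H2-Aa, H2-Ab1, H2-Eb1 and Cd74, in TMM-scaled CPM, each of the 3 B6 AC samples was under each B6 control and each of the 3 SjSS AC samples was over each SjSS control. For Ciita the 3 SjSS AC samples were over their controls and the B6 samples overlapped.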

How the results depend on the processing

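The number of members called was the same in all 9 comparisons by DESeq2, with DESeq2 size factors, without a filter, with at least 10 counts required in 3 samples and in fits to the compared groups alone, in which Ciita gave no value between the strains with CpG because it was filtered out. With no fold threshold the counts became 7 with AC in B6 (38.3% of tested genes) and 7 with AC in SjSS (58.0%). They were 5 with CpG in B6 (57.9%) and 4 with CpG in SjSS (54.2%). Between the strains with AC the count was 8 (49.4%), and in the interaction with AC 7 (37.9%). A fold change of 1.3 gave 6 with AC in B6 (3523 of 15789 genes) and 6 with AC in SjSS (6697). It gave 4 with CpG in B6 (6764) and 3 with CpG in SjSS (6082). Between the strains with AC it gave 6 (5266), and in the interaction with AC 6 (4634). Without scaling of library totals, an alternative chosen after seeing the data, the count was 3 with CpG in B6 (Ciita added at -1.45) and unchanged in the other 8 comparisons. Signs then turned for Ctss at -0.11 with AC in SjSS, -0.020 between the strains with AC, -0.19 in the interaction with AC and 0.031 in that with CpG, for H2-DMb1 at -0.072 between the strains with AC, -0.031 in the interaction with AC and 0.010 in that with CpG, for H2-DMb2 at -0.25 and 0.028 in the interactions with AC and CpG, for H2-Ab1 at -0.012 with CpG in SjSS and for H2-DMa at 0.043 between the strains with CpG. Over all genes, calls were 1119 higher and 921 lower with AC in SjSS against 804 and 1900 unscaled, 925 and 1086 with CpG in B6 against 766 and 1418, 759 and 703 with CpG in SjSS against 657 and 912, 985 and 425 between the strains with AC against 695 and 820, and 752 and 437 in the interaction with AC against 509 and 913. Leaving out 1 sample gave 1 to 3 calls with AC in B6 and 2 to 3 with CpG in B6, and in the other 7 comparisons the count did not move. The signs that turned when a sample was left out belonged to values near 0 that had not passed the test. With AC, Ciita in B6 ranged from -0.33 to 0.16, H2-DMb2 between the strains from -0.30 to 0.011, and H2-DMb2 in the interaction from -0.039 to 0.27. In the controls, Ciita between the strains ranged from -0.16 to 0.24 and H2-DMa from -0.023 to 0.076. With CpG, the ranges were -0.29 to 0.14 for H2-Aa and -0.38 to 0.044 for H2-Eb1 in B6, -0.32 to 0.031 for H2-Aa and -0.12 to 0.12 for Cd74 in SjSS, and -0.62 to 0.045 for H2-DMb2 between the strains. In the interaction with CpG they were -0.28 to 0.15 for H2-Aa, -0.20 to 0.23 for H2-Eb1, -0.13 to 0.0050 for H2-DMb1, -0.36 to 0.30 for H2-DMb2 and -0.084 to 0.036 for Ctss. The cause was not tested. All 3 same-numbered pairs of B6 control with B6 CpG had correlated deviations over 0.1, and those of the other groups did not all pass it, so that 9 of 18 correlations of deviations between same-numbered samples were over 0.1 (range 0.020 to 0.26), although 32 of 36 comparisons of a sample with another group were highest for its own number. With the replicate block the counts were 3 and 1 with AC in B6 and SjSS and 2 in each strain with CpG, as without it, and no call past the fold threshold changed. At the adjusted p alone, the block within strain added Ctss with AC in B6 (0.15), H2-DMa with AC in SjSS (-0.17) and H2-Ab1 and Cd74 with CpG in B6, and the block across all groups added H2-Aa, H2-Ab1, H2-Eb1 and Cd74 between the untreated strains and H2-Aa and H2-Eb1 between the strains with CpG. Levels from unscaled library totals moved by over 1 SD in 14 of 54 group means, and the rank of a level per length changed with the longest transcript in 10 of 54, among them Cd74 and H2-DMb1 in B6 controls. Ciita rests on 1 to 97 counts per sample, which limits its precision. Whether the SjSS line carries B6 alleles at the H2 genes was not checked.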
